A study of Mus musculus with 10 samples.

Results

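The mitosis and G2/M set held 43 genes whose products drive entry into mitosis, chromosome segregation and cell division. It was a written list, and a gene belonged to it when its name in the deposited count table equalled a name on the list. All 43 names were found among the 55421 gene identifiers of the table, each with a single identifier, and all 43 passed the filter of at least 10 counts summed over the 10 livers that left 22449 genes for testing.

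RNA was sequenced from the livers of male mice in 3 groups. The H3.3 KO group (n = 4) carried floxed alleles of both genes for the histone variant H3.3 (H3f3afl/fl_H3f3bfl/fl) and received AAV8 Tbg-Cre, an adeno-associated virus that expresses Cre recombinase. The WT Cre controls (n = 3) were wildtype mice given that virus, and the MCS controls (n = 3) were floxed mice given AAV8 Tbg-MCS, which lacks Cre. Every animal was injected at 6 months of age and its liver was collected 3 weeks later, so all groups shared the AAV8 capsid, the age and the interval. Tbg is a hepatocyte promoter, and the immune, endothelial, stellate and other cells of a KO liver should therefore keep their H3.3 genes. Recombination by cell type was not measured in these data. The floxed animals carry HIRA in the genotype field of the labels but H3f3a and H3f3b in the titles, which the groups follow. Nothing in the labels ties a sample to a litter or a batch, and p-values set a difference between groups against the spread between these livers.

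Genes of this set are silent or nearly so in resting cells and are switched on late in the cell cycle. In quiescence the DREAM complex, built on the MuvB core, keeps them off through a short promoter element, the cell cycle genes homology region (CHR). In S and G2 phase MuvB exchanges partners for B-MYB and then FOXM1, and the same promoters become active. Most hepatocytes of an adult mouse liver are quiescent and many are polyploid, but they can re-enter the cycle after injury or resection, and Kupffer cells, lymphocytes and stellate cells can also divide in the liver.

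Libraries held 14998426 to 26096141 counts, with the fewest in KO 1, and 1602 to 5471 of those counts per liver fell on the 43 genes. Levels are counts per 1 000 000 of library size after TMM adjustment (CPM). The 2 H3.3 genes were lower in every KO liver than in every control: H3f3a fell from 62.1 ± 1.58 CPM (SD, n = 6) to 17.4 ± 1.66 (SD, n = 4), and H3f3b from 160.0 ± 24.0 to 50.5 ± 7.40. Replicates were separate libraries: within a group their counts gave a chi-square of 10.3 to 96.7 per degree of freedom over all genes, where sampling noise alone gives about 1. Hepatocyte markers were present in all livers, with 10 of 10 detected.

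Most of the set was higher in H3.3 KO than in the 6 pooled controls. In the quasi-likelihood F test of edgeR, 37 of the 43 genes rose and 1 fell at an adjusted p under 0.05, against 19.7% of all genes tested that rose and 16.6% that fell. The other 5 did not pass. Of the 37, 34 also had a log2 fold change over 1, which 12.9% of all genes tested did. The median log2 fold change of the 43 genes was 1.64, beside -0.00298 over all genes tested. Summed over the set, the level was 95.4, 122 and 120 CPM in WT Cre controls 1 to 3, 92.5, 96.4 and 89.5 in MCS controls 1 to 3, and 164, 197, 225 and 209 in KO 1 to 4. Every KO liver lay above every control in this sum. The same held gene by gene for 29 of the 43 (12.5% of all genes tested), and no member had every KO liver below every control (12.0% of all genes tested). The data are from whole liver, so more cells that carry a transcript and more of it per cell cannot be told apart.

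**Figure D1:**
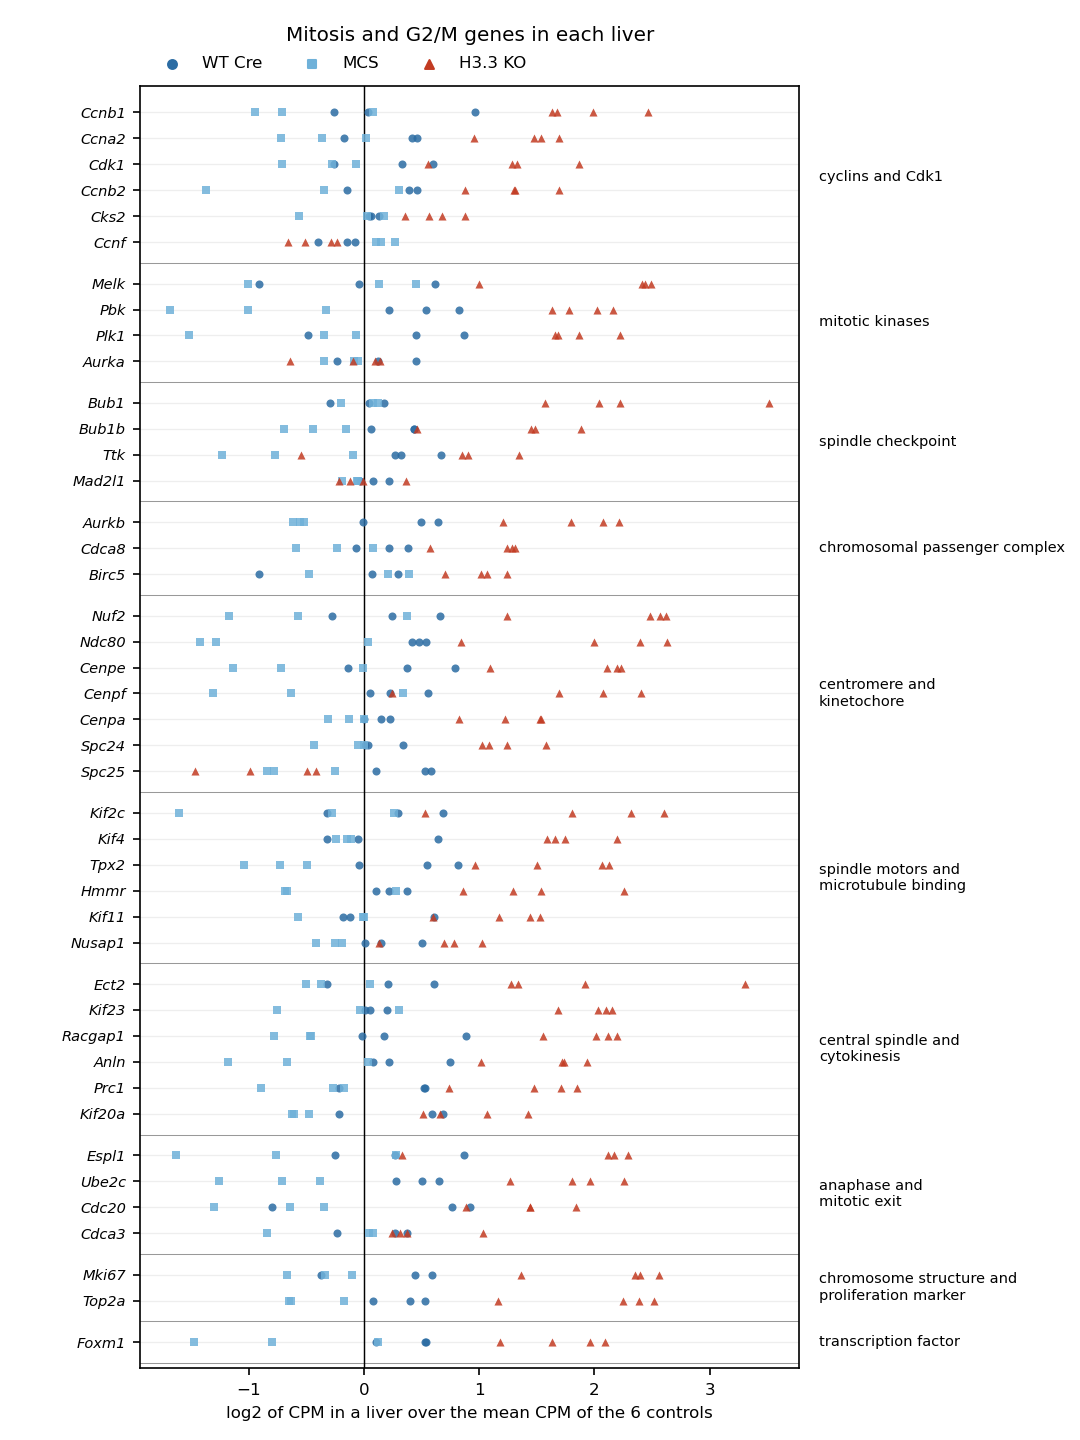
Each row is 1 of the 43 genes, ordered by role and by log2 fold change, and each symbol is 1 liver; the x axis is the log2 ratio of CPM in that liver to the mean CPM of the 6 controls. KO triangles lie right of all control symbols in 29 rows, whereas Ccnf, Spc25 and Aurka show them among or left of the controls and Mad2l1 has KO 3 alone to the right.

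Levels were low. In the controls 21 of the 43 genes averaged under 1 CPM, and in KO 4 did. Compared per kilobase of annotated exon, only 5 genes exceeded 1 CPM per kilobase in the controls: Cks2 at 14.4, Spc24 at 6.02, Ccnf at 3.17, Spc25 at 2.19 and Aurka at 1.18. In KO, 15 genes did, led by Cks2 at 22.3 and Spc24 at 14.3. Of those 5 genes, Cks2 and Spc24 rose and the other three did not.

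Promoters of the set were examined for the CHR letters, because the set is a textbook group of CHR-dependent genes. RefSeq promoters (build GRCm38.p6, 250 bases before to 50 after a start) were matched for 36 of the 43 genes, with 38 promoters in all, and none was matched for Aurkb, Ccna2, Foxm1, Kif20a, Pbk, Spc24 and Tpx2. TTTGAA or TTTAAA, on either strand, occurred in 32 of the 38 (84.2%), compared with 27.6% of all 32851 promoters in the table. Within 50 bases of the start the letters were found in 29 of the 38 (76.3%), compared with 8.28% of all promoters. CCAAT, the letters of the box that the factor NF-Y recognises, occurred in 30 (78.9%) compared with 37.4%, and both kinds of letters in 28 (73.7%) compared with 10.7%. The windows below belong to the 6 genes with a match that had the highest mean count in KO. They are shown because the letters occur both in Ccnf, which did not rise, and in genes that did. Capitals mark the element (TTCAAA is TTTGAA on the other strand), and each window reads 5′ to 3′ on the strand of the gene.
Ccnf, chr17:24251406-24251435, minus strand: gctcccggcgcgTTTGAAaacggggcgggg
Cenpa, chr5:30666857-30666886, plus strand: acaaagttgggaTTTAAAagatgcggtggg
Mki67, chr7:135716460-135716489, minus strand: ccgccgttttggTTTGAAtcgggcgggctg
Top2a, chr11:99024195-99024224, minus strand: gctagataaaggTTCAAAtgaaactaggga
Ect2, chr3:27153822-27153851, minus strand: cgactggattttTTTGAAtcggaggcggca
Cdk1, chr10:69352910-69352939, minus strand: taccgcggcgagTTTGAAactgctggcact
The first capital lay 14, 17, 98, 23 and 15 bases before the annotated start in Ccnf, Cenpa, Mki67, Top2a and Cdk1, and 16 bases into the gene at the second of 2 annotated starts of Ect2. The letters were in 5 of the 6 promoters of genes that did not rise (Aurka, Ccnf, Cdca3, Spc25 and Ttk, but not Mad2l1), and in 27 of the 32 promoters of genes that rose. The risen genes without them in the window were Bub1, Nuf2, Melk, Cks2 and Nusap1.

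Mki67 and Top2a, the genes for the proliferation marker Ki-67 and for topoisomerase II alpha, both separated the groups. Mki67 was at 1.75, 3.08 and 3.41 CPM in WT Cre controls 1 to 3, at 1.43, 2.10 and 1.79 in MCS controls 1 to 3, and at 5.80, 13.4, 11.9 and 11.6 in KO 1 to 4. All KO livers were above all controls, and KO 1 was the lowest of the KO livers. The mean rose from 2.26 ± 0.801 CPM (SD, n = 6) to 10.65 ± 3.33 (SD, n = 4), a log2 fold change of 2.24 with an SE of 0.27 (adjusted p = 6.43e-05 in edgeR). Top2a was at 2.00, 2.73 and 2.5 CPM in the WT Cre controls, 1.22, 1.21 and 1.68 in the MCS controls, and 4.23, 8.98, 9.90 and 10.8 in KO 1 to 4. The groups again did not overlap, and each WT Cre control also exceeded each MCS control. Its log2 fold change was 2.17 with an SE of 0.283 (adjusted p = 0.000104 in edgeR).

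Foxm1, the forkhead factor that activates this programme in G2, rose with it. It was at 1.13, 1.13 and 0.834 CPM in WT Cre controls 1 to 3, 0.448, 0.848 and 0.279 in MCS controls 1 to 3, and 1.76, 3.32, 3.03 and 2.41 in KO 1 to 4. The lowest KO liver stood above the highest control. The log2 fold change was 1.75 with an SE of 0.32 (adjusted p = 0.001 in edgeR).

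Among the cyclins and their kinase, 5 of 6 genes rose and Ccnf fell. Cdk1, the kinase that drives entry into mitosis, was at 1.67, 2.52 and 3.02 CPM in the WT Cre controls, 1.22, 1.65 and 1.90 in the MCS controls, and 2.93, 5.02, 7.29 and 4.86 in KO. KO 2 to 4 exceeded all controls, and KO 1 lay just below WT Cre 3. Its log2 fold change was 1.34 with an SE of 0.271 (adjusted p = 0.00196 in edgeR). Ccnb1, the mitotic cyclin that binds Cdk1, was at 0.458, 0.564 and 1.07 CPM in the WT Cre controls, 0.285, 0.580 and 0.335 in the MCS controls, and 1.76, 1.70, 3.03 and 2.18 in KO. The groups did not overlap, and the log2 fold change of 1.96 with an SE of 0.322 (adjusted p = 0.000476 in edgeR) was the largest of this role. Ccnb2 (1.31), Ccna2 (1.44), which acts in S and G2 phase, and Cks2 (0.63), a small subunit of the Cdk1 complex, had the remaining log2 fold changes, each with every KO liver above every control.

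Ccnf, which encodes the substrate receptor cyclin F of an SCF ubiquitin ligase, differed from the other cyclins. It was at 18.8, 23.4 and 22.4 CPM in WT Cre controls 1 to 3, at 26.6, 29.9 and 27.5 in MCS controls 1 to 3, and at 15.7, 21.1, 17.4 and 20.4 in KO 1 to 4. KO livers lay below all MCS controls but overlapped the WT Cre controls, and every WT Cre control lay below every MCS control. The log2 fold change against all controls was -0.41 ± 0.135 (SE, adjusted p = 0.0312 in edgeR), and the call was lost in 7 of 19 alternatives, among them the fits without MCS 1, MCS 2, MCS 3, KO 1 or KO 3 and that on log2(FPKM + 1), the deposited level scaled for depth and gene length (highest adjusted p = 0.262, in limma).

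**Figure D2:**
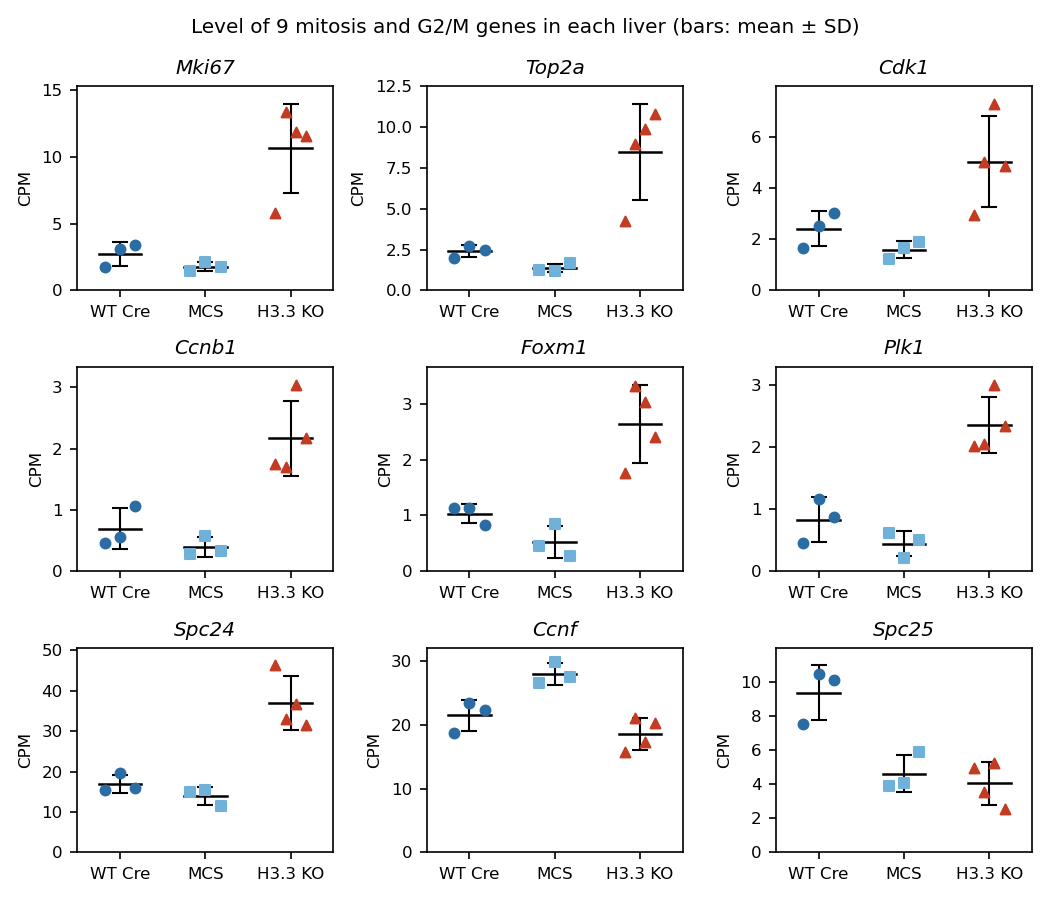
CPM of 9 genes in each of the 10 livers (y axis from 0), with the mean and SD of each group as bars. Mki67, Top2a, Ccnb1, Foxm1, Plk1 and Spc24 show KO livers above all controls; Cdk1 overlaps in KO 1, and Ccnf and Spc25 do not rise.

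Of the mitotic kinases, 3 of 4 rose. Plk1, polo-like kinase 1, was at 0.458, 1.17 and 0.873 CPM in the WT Cre controls, 0.611, 0.223 and 0.503 in the MCS controls, and 2.02, 2.06, 2.99 and 2.33 in KO. No KO liver overlapped a control, and its log2 fold change was 1.86 with an SE of 0.327 (adjusted p = 0.000769 in edgeR). Melk, a kinase that is abundant in dividing and progenitor cells, was the scarcest of the role, at 0.250, 0.0867 and 0.159 CPM in the WT Cre controls, 0.0814, 0.179 and 0.224 in the MCS controls, and 0.326, 0.870, 0.885 and 0.918 in KO. KO 1 stood apart from the other KO livers but remained above all controls, whose values rest on 2 to 6 counts each. Its log2 fold change was 2.21 with an SE of 0.376 (adjusted p = 0.000605 in edgeR), and that of Pbk, a MAPKK-like mitotic kinase, was 1.87. Aurka, the kinase of centrosomes and spindle poles, behaved otherwise: it was at 2.54, 4.08 and 3.26 CPM in the WT Cre controls, 2.89, 2.81 and 2.35 in the MCS controls, and 3.19, 2.81, 3.29 and 1.91 in KO. The ranges overlapped, with KO 4 the lowest of all livers, and the log2 fold change was -0.10 with an SE of 0.205 (adjusted p = 0.738 in edgeR).

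The spindle checkpoint, which holds anaphase until all kinetochores are attached, was split. Bub1, a checkpoint kinase at the kinetochore, was at 0.125, 0.174 and 0.159 CPM in the WT Cre controls, 0.163, 0.134 and 0.168 in the MCS controls, and 0.456, 0.633, 0.716 and 1.76 in KO. All KO livers exceeded all controls, in which only 3 or 4 reads were counted, and KO 4 stood well above the other KO livers. The log2 fold change of 2.53 with an SE of 0.396 (adjusted p = 0.000343 in edgeR) was the largest of the 43. Bub1b, which encodes BubR1, rose by 1.41 on the log2 scale. Mad2l1, the gene for the checkpoint protein MAD2, was at 3.46, 4.12 and 3.73 CPM in the WT Cre controls, 3.09, 3.39 and 3.41 in the MCS controls, and 3.26, 3.04, 4.55 and 3.52 in KO. It did not separate the groups, with a log2 fold change of 0.03 with an SE of 0.159 (adjusted p = 0.919 in edgeR). Ttk, the kinase MPS1, was at 0.458, 0.607 and 0.476 CPM in the WT Cre controls, 0.163, 0.357 and 0.224 in the MCS controls, and 0.261, 0.712, 0.969 and 0.688 in KO. KO 2 to 4 lay above all controls and KO 1 fell among the MCS controls. Its log2 fold change of 0.80 with an SE of 0.387 (adjusted p = 0.124 in edgeR) passed in the fit without KO 1 (adjusted p = 0.0336) and on log2(FPKM + 1) (adjusted p = 0.00868 in limma).

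The 3 members that belong to the chromosomal passenger complex, which corrects faulty kinetochore attachments, rose without overlap between groups. Aurkb, its kinase, was at 0.750, 0.477 and 0.675 CPM in the WT Cre controls, 0.326, 0.313 and 0.335 in the MCS controls, and 1.11, 1.66, 2.02 and 2.22 in KO, a log2 fold change of 1.86 with an SE of 0.297 (adjusted p = 0.00039 in edgeR). Birc5, which encodes survivin, was at 1.63, 0.824 and 1.91 CPM in the WT Cre controls, 2.04, 1.12 and 1.79 in the MCS controls, and 3.13, 3.24, 3.67 and 2.52 in KO, a log2 fold change of 1.02 with an SE of 0.24 (adjusted p = 0.00523 in edgeR). With Bub1 and Ccnf, Birc5 was 1 of 3 members whose mean was no higher in WT Cre than in MCS controls. Cdca8, which encodes borealin, had a log2 fold change of 1.14.

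Centromere and kinetochore genes rose in 6 of 7 cases. Spc24 was the most abundant member by count in KO, whereas Ccnf was higher than Spc24 in every control. Spc24 was at 15.6, 19.6 and 15.9 CPM in the WT Cre controls, 14.9, 15.5 and 11.5 in the MCS controls, and 46.4, 32.9, 36.7 and 31.6 in KO. Here KO 1 was the highest KO liver, the only gene of the set for which that was so, and its log2 fold change was 1.25 with an SE of 0.141 (adjusted p = 3.29e-05 in edgeR). Ndc80, the scarcest of the role, was at 0.292, 0.304 and 0.318 CPM in the WT Cre controls, 0.0814, 0.0893 and 0.224 in the MCS controls, and 0.391, 0.870, 1.35 and 1.15 in KO, with a log2 fold change of 2.11 with an SE of 0.408 (adjusted p = 0.00146 in edgeR). Nuf2 (2.34), Cenpe (1.95), Cenpf (1.82) and Cenpa (1.31), the centromeric histone H3 variant, gave the other log2 fold changes that passed.

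The NDC80 complex, which couples kinetochores to microtubules, has 4 subunits, and all are in the set. Ndc80, Nuf2 and Spc24 rose, whereas Spc25 did not: it was at 7.50, 10.5 and 10.1 CPM in WT Cre controls 1 to 3, 3.91, 4.06 and 5.87 in MCS controls 1 to 3, and 4.95, 3.52, 5.23 and 2.52 in KO 1 to 4. KO livers lay within or below the range of the MCS controls and below all WT Cre controls. Against all controls the log2 fold change was -0.79 with an SE of 0.324 (adjusted p = 0.076 in edgeR), and this passed in the 3-group fit and without MCS 1 or MCS 2 (lowest adjusted p = 0.0228). Against the WT Cre controls Spc25 fell, with a log2 fold change of -1.22 (adjusted p = 0.00353 in edgeR), and against the MCS controls the difference was -0.19 (adjusted p = 0.615 in edgeR).

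All 6 genes for spindle motors and microtubule-binding proteins rose. Kif11, the motor that separates the spindle poles, was at 1.29, 1.34 and 2.22 CPM in the WT Cre controls, 1.47, 0.982 and 1.45 in the MCS controls, and 2.22, 3.28, 3.96 and 4.21 in KO. KO 1 lay just under WT Cre 3, and the other KO livers were higher than all controls. The log2 fold change was 1.23 with an SE of 0.237 (adjusted p = 0.0014 in edgeR). Kif2c, a microtubule depolymerase at centromeres, was at 0.333, 0.217 and 0.437 CPM in the WT Cre controls, 0.326, 0.0893 and 0.224 in the MCS controls, and 0.391, 0.949, 1.35 and 1.64 in KO. KO 1 overlapped the controls again, and the log2 fold change was 1.99 with an SE of 0.404 (adjusted p = 0.00197 in edgeR). The chromokinesin gene Kif4 (1.80), Tpx2 (1.73), an activator of Aurora A, Hmmr (1.59), a spindle assembly protein, and the microtubule-bundling gene Nusap1 (0.70) followed in log2 fold change. Nusap1 lost its call in 6 of 19 alternatives (adjusted p = 0.0266 in edgeR and up to 0.1), including those without MCS 1, MCS 2, KO 2, KO 3 or KO 4.

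The 6 genes of the central spindle and cytokinesis also all rose. Ect2, the exchange factor that activates RhoA at the division plane, was at 1.29, 1.87 and 2.46 CPM in the WT Cre controls, 1.14, 1.25 and 1.68 in the MCS controls, and 3.91, 4.07, 6.11 and 15.95 in KO 1 to 4. KO 4 held by far the highest value, and the other KO livers were still above all controls. The log2 fold change was 2.22 with an SE of 0.398 (adjusted p = 0.00134 in edgeR). Anln, which encodes the contractile ring protein anillin, was at 0.750, 0.824 and 1.19 CPM in the WT Cre controls, 0.448, 0.313 and 0.726 in the MCS controls, and 1.43, 2.33, 2.36 and 2.72 in KO. The groups were apart, with a log2 fold change of 1.64 with an SE of 0.308 (adjusted p = 0.00118 in edgeR). Racgap1 (1.98) and Kif23 (2.00), the 2 partners of the centralspindlin complex, had nearly equal log2 fold changes. Prc1 (1.51), which bundles antiparallel microtubules, and Kif20a (0.96) completed the role, and Kif20a lost its call in 5 of 19 alternatives (adjusted p = 0.0235 in edgeR and up to 0.0975), including those without MCS 1, MCS 2, KO 3 or KO 4.

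Among genes for anaphase and mitotic exit, 3 of 4 rose. Ube2c, the ubiquitin-conjugating enzyme of the anaphase-promoting complex (APC/C), had a log2 fold change of 1.86 with no overlap, and Cdc20, its mitotic activator, one of 1.44. Espl1, the gene for the cohesin-cleaving protease separase, was at 0.500, 0.347 and 0.754 CPM in the WT Cre controls, 0.244, 0.134 and 0.503 in the MCS controls, and 0.521, 1.86, 2.02 and 1.80 in KO. KO 1 fell within the range of the controls and the other KO livers were well above it. Its log2 fold change was 1.92 with an SE of 0.412 (adjusted p = 0.00289 in edgeR). Cdca3, an F-box-like protein that promotes mitotic entry, was at 2.04, 3.12 and 2.90 CPM in the WT Cre controls, 2.48, 2.54 and 1.34 in the MCS controls, and 3.13, 2.85, 4.93 and 2.98 in KO. Only KO 3 was clearly above the controls, and the log2 fold change of 0.52 ± 0.237 did not pass (SE, adjusted p = 0.102 in edgeR), although it passed on log2(FPKM + 1) (adjusted p = 0.0364 in limma).

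KO livers were also compared with each kind of control alone, WT Cre sharing the virus with Cre and MCS the floxed genotype. Both comparisons share the 4 KO livers. Against the WT Cre controls 34 of the 43 genes rose and Spc25 fell (15.3% and 13.1% of all genes tested), with a median log2 fold change of 1.27 beside 0.0161 over all genes. Without WT Cre 1 the first count was 22, and WT Cre 2 and WT Cre 3, which remained in that fit, had the highest summed levels of the controls. Against the MCS controls 38 rose and Ccnf fell (17.3% and 14.8% of all genes tested), with a median of 2.11 beside 0.00616. The 34 genes that rose against the WT Cre controls also rose against the MCS controls and against the pool. Cdc20, Kif20a, Nusap1 and Ttk rose against the MCS but not the WT Cre controls. For Cdc20 the log2 fold change was 0.98 against WT Cre (adjusted p = 0.0626 in edgeR) and 2.16 against MCS (adjusted p = 0.00171 in edgeR), and the difference of these 2 values, which is that between the WT Cre and MCS controls, did not pass (adjusted p = 0.305 in edgeR).

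**Figure D3:**
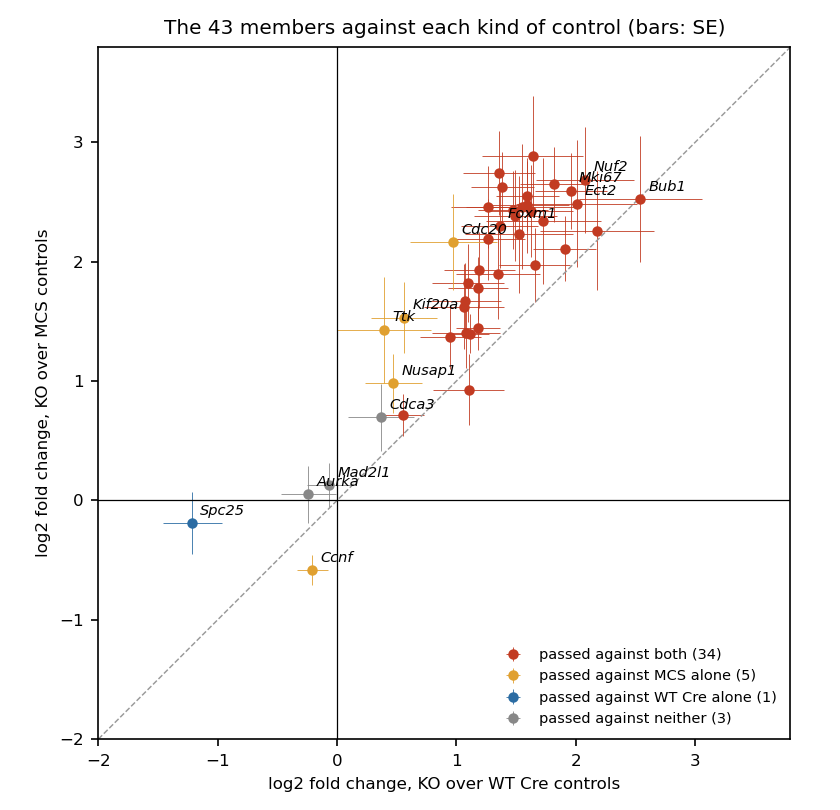
Log2 fold change of KO over the WT Cre controls (x axis) and over the MCS controls (y axis) for the 43 genes, with SE bars and a dashed line of equality; colours give the comparisons in which a gene passed. Of the 43 points 40 lie above the line, and 34 passed on both axes.

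The 2 kinds of control were compared directly as the background of these differences. No member passed between WT Cre and MCS controls in edgeR (0.441% of all genes tested were higher in WT Cre and 0.486% lower), while DESeq2 called 2 and limma-voom 0. At an unadjusted p under 0.05, 11 members were higher in WT Cre (5.51% of all genes tested) and Ccnf was lower (5.17%). The log2 fold change was positive for 40 of the 43, beside 49.9% of all genes tested, and its median was 0.61. In 15 members every WT Cre control lay above every MCS control (11.0% of all genes tested), and in 1, Ccnf, every one lay below (11.2%). Among the 15 were Top2a, Aurkb, Tpx2, Ube2c, Racgap1 and Spc25. Pbk had the largest such difference, at 0.417, 0.520 and 0.635 CPM in WT Cre controls 1 to 3 and 0.285, 0.179 and 0.112 in MCS controls 1 to 3 (log2 fold change 1.38, adjusted p = 0.153 in edgeR). WT Cre 2 and WT Cre 3 were the highest of the 6 controls in 17 and 20 members, and the lowest control was an MCS liver in 39.

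KO livers differed among themselves, mostly in that KO 1 was low. KO 1 was the lowest of the 4 in 33 members, and KO 2 and KO 4 in 5 each. The highest was KO 3 in 23, KO 4 in 13, KO 2 in 6 and KO 1 in 1. The median ratio of a member to its control mean was 1.94 in KO 1, 2.88 in KO 2, 3.79 in KO 3 and 3.61 in KO 4. KO 1 exceeded the highest control in 30 members, KO 2 in 37, KO 3 in 40 and KO 4 in 38. KO 1 was also the shallowest library. Without it 38 members rose in place of 37.

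Markers of several, but not all, cell types other than hepatocytes were also higher in KO. Among all genes tested 19.7% rose and 16.6% fell. All 10 Kupffer cell markers rose, and their summed level was 248 to 468 CPM in the controls and 579, 898, 933 and 1257 in KO 1 to 4. Of 10 markers of monocyte-derived macrophages 9 rose, with sums of 94.7 to 127 CPM in the controls and 182, 265, 300 and 314 in KO 1 to 4. T and NK cell markers rose in 9 of 10 cases, from 3.50 to 5.58 CPM in the controls to 6.19, 27.2, 16.3 and 24.8 in KO 1 to 4. In KO 1 only Cd4 and Stat4 of this list lay above all controls, and the others lay within the control range. Stellate cell markers rose in 9 of 10 cases, from 216 to 276 CPM in the controls to 494, 554, 543 and 789 in KO 1 to 4. KO 1 was the lowest KO liver in each of these sums, as in the summed level of the 43 genes. It was also the lowest for B and plasma cell, neutrophil and endothelial markers, but not for cholangiocyte, erythroid or hepatocyte markers. The highest KO liver was KO 3 for the 43 genes. For Kupffer, macrophage and stellate markers it was KO 4, and for T and NK cell markers KO 2. B and plasma cell markers rose in 6 of 9 tested (244 to 371 CPM in the controls, 567 to 872 in KO), neutrophil markers in 4 of 8 tested (3.91 to 13.3 and 6.32 to 28.7), endothelial markers in 2 of 10 (267 to 335 and 290 to 512) and cholangiocyte markers in 2 of 7 tested (42.1 to 63.5 and 56.5 to 75.8). The endothelial and cholangiocyte shares were near that of all genes tested. Most of the cholangiocyte sum was Spp1, which is also on the list of monocyte-derived macrophages. Spp1 was at 31.12 to 51.95 CPM in the controls and 38.43 to 51.27 in KO. Most of the B and plasma cell sum was Sdc1, at 209 to 302.5 CPM in the controls and 347 to 604 in KO. The list was split in KO 1. Igkc was at 2.46 to 5.86 CPM in the controls, 3.91 in KO 1 and 159.8 to 344 in KO 2 to 4. Jchain and Mzb1 in KO 1 were likewise within the range of the controls. Ighm was at 27.77 to 58.35 CPM in the controls, 134.5 in KO 1 and 54.72 to 67.29 in KO 2 to 4. Sdc1 in KO 1, at 423.4 CPM, was also above all controls. The other markers of the list lay within the control range in KO 1. Erythroid markers had 0 of 9 tested higher in edgeR and 1, Klf1, lower (128 to 328 CPM in the controls, 54.1 to 222 in KO). Hepatocyte markers fell in 8 of 10 cases, from 107500 to 152300 CPM in the controls to 80870 to 95760 in KO. No marker was at 0 in all livers. The part of these cell types in the rise of the mitosis genes was not tested.

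**Figure D4:**
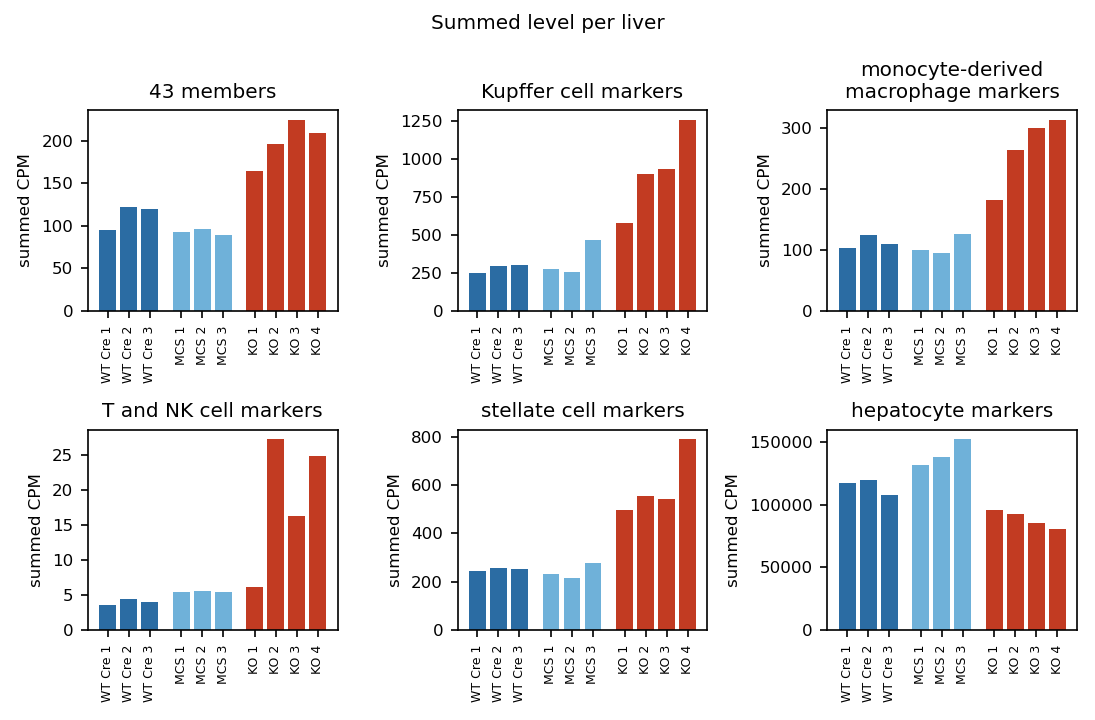
Summed CPM per liver (bars, y axes from 0) of the 43 genes and of 5 lists of 10 cell type markers each, for the WT Cre controls, MCS controls and KO livers. The 43 genes and the Kupffer, macrophage, T and NK cell and stellate markers are higher in every KO liver than in every control. For T and NK cell markers KO 1 is only narrowly so, at 6.19 CPM beside 5.58 in the highest control. The hepatocyte markers are lower in every KO liver.

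Other parts of the cell cycle changed less uniformly than the 43 genes. Over 105 genes in 6 related lists, 35 rose and 10 fell, with a median log2 fold change of 0.17. These counts stand beside 19.7% of all genes tested that rose and 16.6% that fell, and the related genes that fell were a smaller share than that. Genes named here outside the highest, the lowest and 6 fixed genes were added after their values were seen. Of 30 genes for DNA replication and S phase, 11 rose and 3 fell, among them Gins1 and Mcm7. Cdc6, which loads the replicative helicase, had the highest log2 fold change of those that passed, at 0.193 ± 0.0887 CPM (SD) in the 6 controls and 1.06 ± 0.427 in the 4 KO livers (2.47, adjusted p = 0.00036 in edgeR). Mcm2, a helicase subunit, rose by 0.81 (adjusted p = 0.0399 in edgeR), and Pcna, the sliding clamp, did not pass at 0.21 (adjusted p = 0.0586 in edgeR).

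The list of G1 cyclins, kinases and inhibitors held 8 of 16 genes that rose and 0 that fell in edgeR. Inhibitors of cyclin-dependent kinases were 5 of the 8 (Cdkn1a, Cdkn1b, Cdkn1c, Cdkn2a and Cdkn2c), with Cdkn1c at a log2 fold change of 1.86 (adjusted p = 2.95e-05 in edgeR) as the highest and Cdkn1b at 0.35 (adjusted p = 0.0248 in edgeR) as the lowest that passed. Cdkn1a, which encodes the p53-induced inhibitor p21, spanned 18.4 to 118 CPM in the controls and 131 to 161 in KO, a log2 fold change of 1.41 (adjusted p = 0.0363 in edgeR). Ccnd1, the gene for cyclin D1, spanned 6.19 to 22.9 CPM in the controls and 19.6 to 84.3 in KO, a log2 fold change of 1.68 (adjusted p = 0.0165 in edgeR).

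Among 19 MuvB, E2F and MYB factors, 5 rose (Mybl1, E2f2, Mybl2, Rbl1 and E2f3) and 3 fell (Rbbp4, Rbl2 and Tfdp1), shares near those of all genes tested (19.7% and 16.6%). Mybl1 had the highest log2 fold change at 2.75 (adjusted p = 0.00186 in edgeR) and Rbbp4, a MuvB subunit, the lowest at -0.54 (adjusted p = 0.000389 in edgeR). Mybl2, the gene for B-MYB, rose by 1.18 (adjusted p = 0.0155 in edgeR), from a range of 0.163 to 0.694 CPM in the controls to 0.672 to 1.04 in KO. E2f8, a repressor linked to hepatocyte polyploidy, did not pass at -0.39 (adjusted p = 0.381 in edgeR).

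Subunits of the APC/C mostly did not pass, with 1 of 15 higher (Anapc5, log2 fold change 0.44, adjusted p = 0.00146 in edgeR) and 2 lower (Anapc13 and Anapc16, the latter at -1.18, adjusted p = 6e-05 in edgeR). Of 17 condensin and cohesin genes 6 rose, from Ncapg at the highest (1.74, adjusted p = 0.000697 in edgeR), and 2 fell, Smc1a and Pttg1. Pttg1, which encodes the separase inhibitor securin, had the lowest value (-0.76, adjusted p = 0.0099 in edgeR), whereas Espl1, its target, rose. Of 8 genes that control mitotic entry 4 rose, namely Cdc25b, Cdc25c, Gtse1 and Wee1. Cdc25c, a phosphatase that activates Cdk1, went from 0.0407 to 0.198 CPM in the controls to 0.0651 to 0.758 in KO (adjusted p = 0.00818 in edgeR). These ranges overlap, and the lowest value of each is that of 1 count. Gtse1 had the lowest log2 fold change that passed, at 1.18 (adjusted p = 0.00519 in edgeR).

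**Figure D5:**
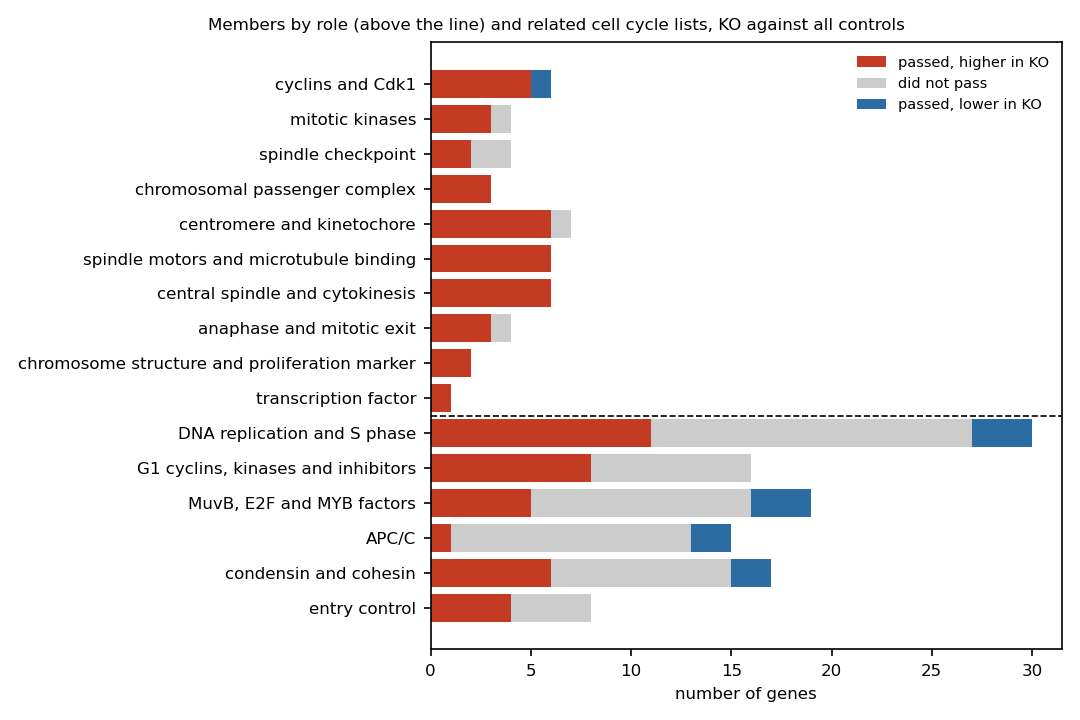
Number of genes (x axis) that were higher, lower or not past an adjusted p of 0.05 in KO against all controls, for the 10 roles of the 43 genes above the dashed line and 6 related lists below it. The upper bars are mostly of risen genes, 37 of 43, and the lower bars mostly of genes that did not pass, 60 of 105.

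Some values could include reads of a neighbour. Exons of 9 members overlap a gene on the other strand: Ccna2, Plk1, Cdca8, Kif4, Nusap1, Kif20a, Prc1, Cdc20 and Ube2c. Exons of Ccnf, Foxm1 and Top2a overlap a gene on the same strand. The counting setting for strand is not given in the sources used here, and reads of such pairs could be shared.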

How the data were processed

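Poly(A) RNA of 10 livers was sequenced. The labels name a directional kit. The authors aligned trimmed reads to mm10 with STAR. The gene counter is named as HOMER in the methods and as HTSeq in the submitters' processing notes, which also name Cufflinks. The deposited counts are whole numbers per gene, without normalization. The authors also deposited FPKM values (268042 blank cells, read as 0), which were used only in an alternative. Strand and multimapping settings are not given in the sources used here.

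KO columns carry the replicate number of a title. Control columns 1 to 3 and 4 to 6 were matched to the WT Cre and MCS controls by library number, and values for one kind of control rest on that match, whereas the pooled comparison does not. Genes with at least 10 counts summed over all livers (22449) were tested with edgeR 4.0.16 (R 4.3.3): TMM normalization, robust quasi-likelihood F test, two-sided, Benjamini-Hochberg adjustment over all genes tested. A gene passed, rose or fell at an adjusted p under 0.05. A 2-group fit set KO against the 6 pooled controls, and a 3-group fit against each kind. The SE was taken as the log2 fold change over the root of F. Fits were tested on simulated counts. Coordinates and exon lengths came from GENCODE M21. Alternatives used RLE or library sizes, DESeq2 1.42.0, limma-voom (limma 3.58.1), other filters, log2(FPKM + 1), a replicate block, other groupings and each liver left out. The 43 genes, their roles, the marker lists and the related lists were chosen with earlier results of these data known. Values per liver are printed for the members with the highest and lowest mean count of each role, those that did not rise, and Mki67, Top2a, Cdk1, Ccnb1, Foxm1 and Plk1. From related lists the extremes among genes that passed are named, with Cdkn1a, Ccnd1, Mcm2, Pcna, E2f8 and Mybl2. One gene of the related lists is counted but not reported by name here.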

Additional observations from a re-analysis of the deposited data

Results flagged for a closer look

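Single livers were checked within the KO livers or within the 6 pooled controls, a pool that mixes both kinds of control. Chance alone flags about 1 in 20 independent checks, and checks of the same liver over many genes are not independent. In 88 checks, 8 values stood apart from the rest by Dixon's ratio. Of these 5 were low values of KO 1, the shallowest library: Melk at 0.326 CPM, Cdca8 at 1.498, Cenpe at 0.782, Nuf2 at 0.717 and Espl1 at 0.521. Cdca3 was high in KO 3, at 4.93 CPM. In the controls Cks2 was low in MCS 3, at 6.76 CPM, and Kif4 was high in WT Cre 3, at 0.675 CPM.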

How the results depend on the processing

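Of the 37 genes that rose in KO, 34 passed under every alternative that tested them (19, or 18 for Melk and Ndc80, which filterByExpr removed), and Cenpf, Nusap1 and Kif20a did not. Ttk and Cdca3, which did not pass, did so on log2(FPKM + 1). Leaving out each liver in turn gave 35 to 38 risen members against all controls, 22 to 36 against WT Cre, 36 to 38 against MCS, and 0 to 1 between the controls. Between WT Cre and MCS 1 member passed with library size only, and 2 each with DESeq2, without the filter and with only the groups compared. On log2(FPKM + 1), which understates changes of low genes, 5 members exceeded a log2 fold change of 1 and the median was 0.518. Library size alone moved the median of all genes to 0.172. The numbers do not pair the livers (correlations of same-numbered deviations -0.122 to 0.203, of others -0.205 to 0.099). With the replicate block 35 members rose against all controls and 2 passed between WT Cre and MCS. Aurka and Mad2l1 changed sign without passing: Aurka to 0.064 (library size), 0.13 (log2(FPKM + 1)), 0.054 (replicate block), and -0.18 to 0.045 leaving out each liver (positive without WT Cre 2, 0.007, and without KO 4), and Mad2l1 to -0.01 without MCS 1 and -0.10 without KO 3, with a highest value of 0.105 leaving out each liver and 0.203 over all alternatives (library size). The cause was not tested. Counts of 2 to 6 per control limit the precision for Melk, and similar counts that for Bub1 and Ndc80.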
